A study of Mus musculus with 12 samples.

Results

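Folliculin, the Rag GTPases and the TFEB family belong to the machinery with which the lysosome senses nutrients. The 10 genes described here are Flcn, Fnip1, Fnip2, Rragc, Rragd, Tfeb, Tfe3, Mitf, Ddit4 and Depdc5, found by gene name among the 56748 genes of the count table. They were chosen by their role at the lysosome and by their counts in the same 12 livers, whose differences between the genotypes were already known. Whether each passed the threshold of the fit over all genes is therefore stated as a description, with no p-value, and nothing is inferred from how many of them moved.

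At the lysosomal surface, heterodimers of RagA or RagB with RagC or RagD bring mTORC1, the kinase complex that couples nutrient supply to growth, to its activator Rheb. Folliculin, in a complex with an FNIP protein, is the GTPase-activating protein for RagC and RagD. In the form it produces, these Rags present TFEB and TFE3 to mTORC1, which phosphorylates them and keeps them in the cytosol, and dephosphorylated TFEB and TFE3 enter the nucleus and switch on genes of lysosomes and autophagy. The GATOR1 complex, of which DEPDC5 is a subunit, inactivates RagA and RagB, and DDIT4 (REDD1) restrains mTORC1 through the TSC complex. In liver this pathway is known for its part in the switch between feeding and fasting and in lipid catabolism.

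RNA was sequenced from whole livers of mice fasted for 24 h, 4 for each of 3 genotypes. The controls, called WT here, are labelled as floxed for CPT1A, 1B and 2 together, the single knockouts (SKO) lack CPT2 in the liver, and the double knockouts (DKO) lack ATF3 and CPT2 there. CPT2 is the inner-membrane carnitine palmitoyltransferase needed for mitochondrial oxidation of long-chain fatty acids, and ATF3 is a stress-induced transcription factor. The study's text gives C57BL6 for the lines of its protein screen and names the N substrain for the source of its Atf3-floxed mice. The floxed alleles were removed by Cre under the albumin promoter, which is known to be active in hepatocytes. Cells without albumin expression in the same liver may therefore keep intact alleles. All 3 labels name CPT2, but CPT1A and 1B are named for the controls only, and ATF3 for the DKO livers only. No control labelled as floxed for Atf3 was analysed here. The labels give separate numbered livers per genotype but no age, sex, litter or date.

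Total counts were 14710304 to 20030055 per liver, and a gene with 0 counts may have up to 3, or 0.145 to 0.196 CPM (counts scaled by TMM library size), by counting error only. Cpt2 was lower in every KO liver than in every WT liver, with 235 ± 25 CPM (mean ± SD, n = 4) for the controls, 126 ± 22.3 for SKO and 118 ± 11.3 for DKO livers. Atf3 had 17 to 39 counts in WT and 259 to 1056 in SKO livers, and 164, 177, 265 and 5 counts in DKO replicates 1 to 4, and counts per gene do not single out the deleted exons of either gene. SKO replicate 3 and DKO replicate 4 were the only livers with many Xist counts (18063 and 20855) and next to no Y-linked counts (2 and 0), although the study's text describes the sequenced mice as male. DKO replicate 4 also stood apart from the other DKO livers, with 75230 CPM of albumin (Alb) against 24990 to 28500 and 505 CPM of Apoa4 against 8642 to 10040. Counts of calls in DKO livers are given with and without it.

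The genes of the folliculin complex and the Rag genes are shown first by their start regions, because Flcn, Rragc and Rragd were the 3 genes whose KO livers all lay above all WT livers, and Fnip1 encodes the partner of folliculin whose transcript was higher in SKO livers. Of the 14097 genes tested in both comparisons with WT, 5.28% had all 8 KO livers above and 6.56% all 8 below all WT livers, and since these values chose the 10 genes, nothing is read from the count of 3. RefSeq start regions on GRCm38.p6 (250 bases before to 50 after the start) were found for 10 of the 10 genes. They were searched on both strands for the E-box CACGTG, for TCACGTGA, the palindromic core of the CLEAR element that TFEB binds, for the C/EBP-ATF element TGATGNAA and for the cyclic AMP response element (CRE) TGACGTCA. The CLEAR core contains the E-box. Capitals below mark the letters matched, and each sequence runs 5′ to 3′ on the strand of its gene.
Flcn, chr11:59809990-59810289, minus strand: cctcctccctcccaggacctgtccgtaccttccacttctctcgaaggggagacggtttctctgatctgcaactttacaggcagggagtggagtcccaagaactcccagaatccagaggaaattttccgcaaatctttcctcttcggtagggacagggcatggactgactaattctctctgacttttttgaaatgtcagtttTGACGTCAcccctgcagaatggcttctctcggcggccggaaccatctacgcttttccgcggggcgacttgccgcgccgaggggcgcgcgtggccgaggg
Fnip1, chr11:54437929-54438228, plus strand: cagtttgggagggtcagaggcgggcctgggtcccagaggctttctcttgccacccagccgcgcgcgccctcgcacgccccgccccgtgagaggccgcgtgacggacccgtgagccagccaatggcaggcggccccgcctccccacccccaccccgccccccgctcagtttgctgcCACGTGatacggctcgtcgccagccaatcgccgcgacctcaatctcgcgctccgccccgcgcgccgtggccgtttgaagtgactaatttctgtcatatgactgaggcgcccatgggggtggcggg
Rragc, chr4:123917183-123917482, plus strand: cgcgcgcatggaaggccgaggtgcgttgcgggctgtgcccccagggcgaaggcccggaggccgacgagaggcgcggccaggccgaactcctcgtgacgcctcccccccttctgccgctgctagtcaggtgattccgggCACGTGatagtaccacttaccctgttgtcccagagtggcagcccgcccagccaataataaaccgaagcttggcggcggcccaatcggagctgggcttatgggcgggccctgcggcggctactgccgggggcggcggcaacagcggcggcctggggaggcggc
Rragd, chr4:32982748-32983047, plus strand: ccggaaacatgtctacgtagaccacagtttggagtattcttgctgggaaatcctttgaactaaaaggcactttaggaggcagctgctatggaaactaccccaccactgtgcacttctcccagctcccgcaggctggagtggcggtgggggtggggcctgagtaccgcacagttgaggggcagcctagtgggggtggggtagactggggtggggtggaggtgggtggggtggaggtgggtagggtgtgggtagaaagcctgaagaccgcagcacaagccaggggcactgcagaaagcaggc

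The CRE letters began 49 bases before the Flcn start, and the E-box began 75 bases before the Fnip1 start and 112 bases before the Rragc start. The region of Rragd, the gene with the largest difference between SKO and WT livers among the 10, held none of the 4 motifs. Of the other genes, 1 of the 3 start regions of Mitf held a CRE, and those of Fnip2, Tfeb, Tfe3, Ddit4 and Depdc5 held no match. The CLEAR core and the C/EBP-ATF element were in the start regions of 0 of the 10 genes. Among all 32851 RefSeq start regions of this length, 7.15% held an E-box, 0.974% the CLEAR core, 3.97% the C/EBP-ATF element and 1.79% the CRE. A match describes the letters of the window and is not evidence of binding, and a window without a match says only that these letters are not in it.

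Flcn (ENSMUSG00000032633, chromosome 11) encodes folliculin. It had 36.1, 41.3, 47.0 and 46.9 CPM in the WT livers 1 to 4, 89.2, 95.0, 98.2 and 63.4 CPM in the SKO livers and 95.3, 88.6, 91.8 and 96.0 CPM in the DKO livers. All 8 KO livers lay above all 4 WT livers, with SKO replicate 4 closest to them, and DKO replicate 4 was as high as the other DKO livers. Against WT livers the level was 2.04-fold higher with Cpt2 lost (log2 fold change 1.03, standard error 0.16) and 2.19-fold higher with Atf3 lost as well (1.13, standard error 0.12). Both passed an adjusted p-value of 0.05 over all genes tested, under every alternative tried.

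Fnip1 (ENSMUSG00000035992, chromosome 11) encodes a partner that folliculin needs for its activity. It had 60.2, 61.3, 65.2 and 71.5 CPM in WT, 107, 67.5, 93.1 and 115 CPM in SKO and 78.8, 92.0, 57.1 and 82.9 CPM in DKO livers. SKO replicate 2 lay within the WT range and the other SKO livers above it, whereas the DKO livers ran from below the WT range to above it. Fnip1 rose in SKO livers with a log2 fold change at 0.58 (standard error 0.16), and its value in DKO livers was 0.28 (standard error 0.15), which did not pass the threshold. Without WT replicate 1 or WT replicate 2 the SKO values were 0.53 and 0.54 and did not pass it either.

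Fnip2 (ENSMUSG00000061175, chromosome 3) encodes the alternative partner. The WT livers had 37.4, 32.6, 37.8 and 54.6 CPM, the SKO livers 34.3, 24.9, 31.0 and 31.2 CPM and the DKO livers 36.5, 33.6, 37.7 and 50.0 CPM. The 3 groups overlapped, and the highest WT and the highest DKO liver were replicates 4 of their groups. The log2 fold changes were -0.40 (standard error 0.17) in SKO and -0.03 (standard error 0.18) in DKO livers, neither past the threshold.

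Rragc (ENSMUSG00000028646, chromosome 4) encodes RagC, a substrate of the folliculin complex. It had 48.0, 42.6, 50.5 and 49.8 CPM in WT, 71.1, 85.0, 70.1 and 82.5 CPM in SKO and 68.5, 79.0, 67.9 and 52.4 CPM in DKO livers. Each KO liver was above each WT liver, but DKO replicate 4 exceeded the highest WT liver by little. Rragc rose by 0.71 on the log2 scale (standard error 0.12) in SKO livers and by 0.50 (standard error 0.14) in DKO livers. The DKO call was close to the threshold and was lost when any single liver other than DKO replicate 4 was left out, whereas without DKO replicate 4 it was kept at 0.60. A lncRNA gene on the opposite strand, Gm12905, overlaps Rragc and had 280 counts over the 12 livers against 13898 of Rragc, and whether counting used strand is not given in the sources used here.

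Rragd (ENSMUSG00000028278, chromosome 4) encodes RagD and is known as a direct target of the TFEB family. It was the scarcest of the 10 transcripts in WT livers, with 1.87, 0.891, 1.5 and 0.774 CPM, and it had 3.91, 2.94, 3.99 and 4.85 CPM in SKO and 2.42, 3.58, 4.22 and 2.11 CPM in DKO livers. These CPM rest on 14 to 36 counts per WT, 58 to 87 per SKO and 39 to 82 per DKO liver, and the KO livers lay above all WT livers. Rragd rose 3.11-fold in SKO livers (1.64 on the log2 scale, standard error 0.32). Its value in DKO livers was 1.29 (standard error 0.36), just outside the threshold, and 1.43 without DKO replicate 4, inside it. With every liver kept it was also inside in DESeq2, with no filter on low counts and with all 12 livers in 1 fit. With RLE normalization or a replicate block it was outside.

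Tfe3 (ENSMUSG00000000134, chromosome X), which encodes the family member acting beside TFEB, had 23.8, 23.6, 26.4 and 28.9 CPM in WT and 34.9, 39.6, 28.8 and 36.8 CPM in SKO livers. In DKO livers it had 43.2, 42.7, 37.3 and 24.1 CPM. SKO replicate 3 and DKO replicate 4, the livers with Xist counts, were the lowest of their groups and within the WT range, and the other KO livers were above it. The part of sex in these values was not tested. Tfe3 rose by 0.46 on the log2 scale (standard error 0.13) in SKO livers, and without WT replicate 1 or 2 the value of 0.41 did not pass the threshold. In DKO livers the value was 0.53 (standard error 0.18), outside the threshold with all livers, and 0.69 without DKO replicate 4, inside it.

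Tfeb (ENSMUSG00000023990, chromosome 17), the regulator after which the family is called here, had 11.3, 8.65, 8.55 and 10.0 CPM in WT, 12.8, 13.9, 11.4 and 9.88 CPM in SKO and 10.0, 8.38, 10.2 and 11.6 CPM in DKO livers. The groups overlapped, with log2 fold changes of 0.33 (standard error 0.17) in SKO and 0.07 (standard error 0.16) in DKO livers that did not pass the threshold. Mitf (ENSMUSG00000035158, chromosome 6), best known from pigment cells, had 6.45, 5.09, 5.74 and 3.93 CPM in WT, 4.16, 3.04, 5.49 and 6.25 CPM in SKO and 4.88, 5.52, 5.2 and 4.59 CPM in DKO livers. Its groups overlapped too, at log2 fold changes of -0.15 (standard error 0.26) and -0.06 (standard error 0.20). Tfec, the family member that is not among the 10 genes, averaged 1.52 ± 0.332 CPM in the controls, with 1.71 ± 0.617 after loss of Cpt2 and 1.64 ± 0.773 CPM in DKO livers (SD, n = 4), and was not past the threshold in either comparison. The counts per gene cannot tell isoforms of these factors apart, nor the protein phosphorylation by which they are known to be controlled.

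Depdc5 (ENSMUSG00000037426, chromosome 5), the GATOR1 subunit, had 16.2, 16.6, 14.5 and 12.6 CPM in WT, 14.3, 10.9, 10.6 and 10.4 CPM in SKO and 12.5, 11.9, 12.5 and 13.4 CPM in DKO livers. SKO replicate 1 was within the WT range and the other SKO livers below it. The log2 fold changes of -0.36 (standard error 0.16) in SKO and -0.24 (standard error 0.13) in DKO livers did not pass the threshold, and without SKO replicate 1 the SKO value of -0.48 did.

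Ddit4 (ENSMUSG00000020108, chromosome 10), a stress-induced gene that glucocorticoids and ATF4 are known to raise, spread more within a genotype than between genotypes. The WT livers had 7.65, 8.01, 49.1 and 12.4 CPM, the SKO livers 9.09, 26.5, 24.9 and 3.29 CPM and the DKO livers 18.3, 41.5, 8.64 and 19.1 CPM. WT replicate 3 was the highest of all 12 livers and SKO replicate 4 the lowest. The log2 fold changes were -0.25 (standard error 0.67) in SKO and 0.20 (standard error 0.64) in DKO livers, so a difference of the size seen for Flcn would not be detectable here. Without WT replicate 3 they were 0.77 and 1.23, neither past the threshold.

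**Figure D1:**
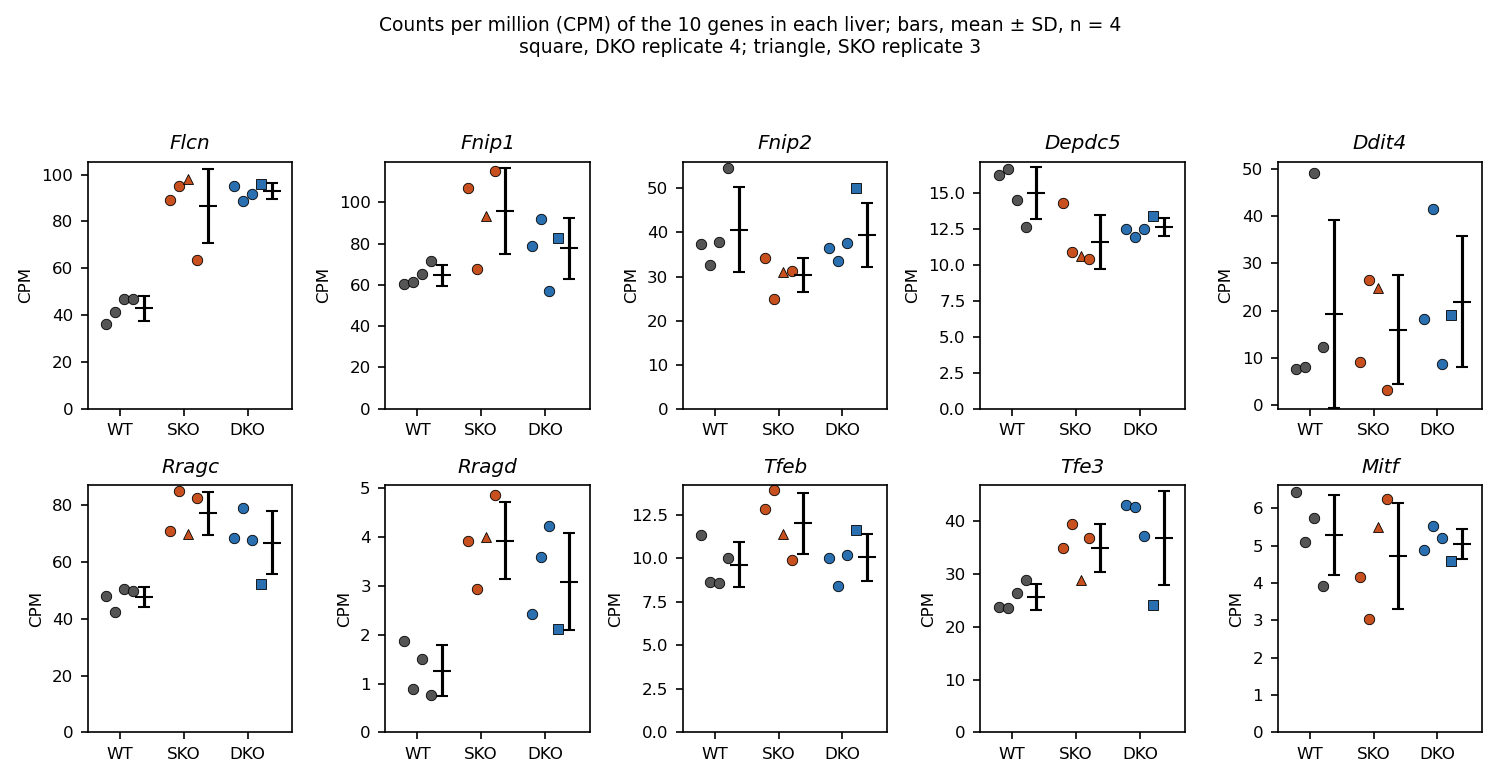
CPM of the 10 genes (vertical axes, linear, a separate scale per gene) in each liver, by genotype, with the mean and SD of 4 livers as bars, DKO replicate 4 as a square and SKO replicate 3 as a triangle. For Flcn, Rragc and Rragd all 8 KO livers are above all WT livers, as for 5.28% of all genes tested, Tfe3 is 24.1 CPM in DKO replicate 4, within the WT range, and Ddit4 reaches 49.1 CPM in 1 WT liver.

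All of the 10 genes passed the filter on low counts in each comparison. In SKO livers 5 rose (Flcn, Fnip1, Rragc, Rragd and Tfe3) and 0 fell in edgeR or DESeq2. At an unadjusted p-value under 0.05, 2 were lower (Fnip2 and Depdc5). Ranked by p-value among all genes tested, in either direction, Fnip2 stood at 38% and Depdc5 at 41.6%. At least 41.6% of all genes were thus under this cut, and nothing is read from the count of 2. Over all 14261 genes tested, 16.7% were called higher and 15.4% lower in SKO than in WT livers. In DKO livers 2 rose (Flcn and Rragc) and 0 fell, beside 6.06% higher and 4.39% lower of the 14448 genes tested, and 4 rose without DKO replicate 4 (Flcn, Rragc, Rragd and Tfe3), when 18.4% of 14634 genes tested were called higher and 17.5% lower. The 10 genes had a median log2 fold change of 0.40 for SKO and 0.24 for DKO livers, beside 0.03 for all genes in each. Since the genes were chosen with these values known, nothing is read from the difference. Both comparisons use the same WT livers, so they are not independent of each other.

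The comparison of DKO with SKO livers asks what the added loss of Atf3 changed. By the quasi-likelihood test of edgeR, adjusted over all genes, 0 of the 10 genes passed the threshold, beside 0.00696% higher and 0.0139% lower of 14363 genes tested, and DESeq2 also called 0. At an unadjusted p-value under 0.05 there was 1 gene, Fnip2, beside 6.49% of all genes, and 0 with DESeq2. The log2 fold changes of DKO against SKO were 0.11 (standard error 0.17) for Flcn, -0.30 (0.20) for Fnip1, 0.38 (0.17) for Fnip2, -0.35 (0.28) for Rragd, -0.25 (0.18) for Tfeb and 0.07 (0.19) for Tfe3. Rragc had -0.20 (0.15), Mitf 0.10 (0.24) and Depdc5 0.13 (0.16), while Ddit4 had 0.45 with a standard error of 0.60. Without DKO replicate 4 the values were 0.08 for Flcn, -0.34 for Fnip1, 0.24 for Fnip2, -0.11 for Rragc, -0.21 for Rragd, -0.34 for Tfeb, 0.22 for Tfe3, 0.13 for Mitf, 0.50 for Ddit4 and 0.09 for Depdc5, and again 0 passed the threshold. All 10 genes overlapped between SKO and DKO livers, as did most genes, since the ranges were apart for 4% of the 14363 genes tested, and standard errors of this size leave room for differences that 4 livers per genotype did not show.

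**Figure D2:**
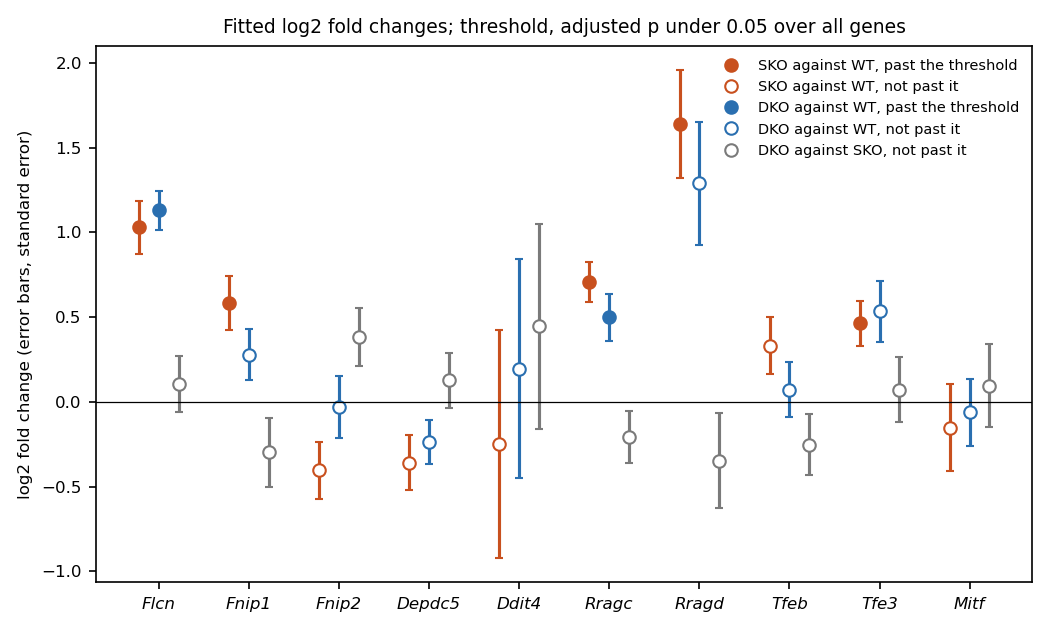
Fitted log2 fold changes (vertical axis) of the 10 genes in SKO against WT, DKO against WT and DKO against SKO livers, with standard errors as bars and filled points for values past an adjusted p-value of 0.05 over all genes. Flcn is at 1.03 and 1.13 against WT with small errors, Rragd has the largest value at 1.64, and the 10 points of DKO against SKO are all open.

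Set on a scale per length (CPM per kilobase of the gene length in the table), the transcripts covered a wide range of levels in WT livers. Rragc had 14.3 ± 1.07 (SD, n = 4), Ddit4 11.0 ± 11.4, Flcn 9.91 ± 1.20, Fnip1 9.07 ± 0.717 and Fnip2 4.67 ± 1.11 CPM per kilobase. The ranges of Flcn and Fnip1 overlapped, and that of Ddit4, 4.36 to 28, reached across its neighbours. The factors came below, with 2.77 ± 0.267 for Tfe3, 1.70 ± 0.229 for Tfeb and 0.856 ± 0.173 for Mitf, with Depdc5 at 1.27 ± 0.155 and Rragd last at 0.244 ± 0.1 CPM per kilobase. From Fnip2 down, each gene's WT range lay above that of the next.

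The order was not the same in SKO livers. Flcn reached 14.7 to 22.7 CPM per kilobase and overlapped Rragc, at 21 to 25.4, whereas these genes did not overlap in WT livers. Tfe3, at 3.78 ± 0.494, and Fnip2, at 3.49 ± 0.451, now overlapped, and so did Mitf, at 0.764 ± 0.230, and Rragd, at 0.758 ± 0.152 CPM per kilobase. In DKO livers Flcn had 20.5 to 22.2 and Rragc 15.7 to 23.7 CPM per kilobase, again with overlapping ranges. Per length, Rragc exceeded Rragd in all 3 genotypes, the means being 14.3 and 0.244 for WT livers and 23.1 and 0.758 for SKO livers.

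**Figure D3:**
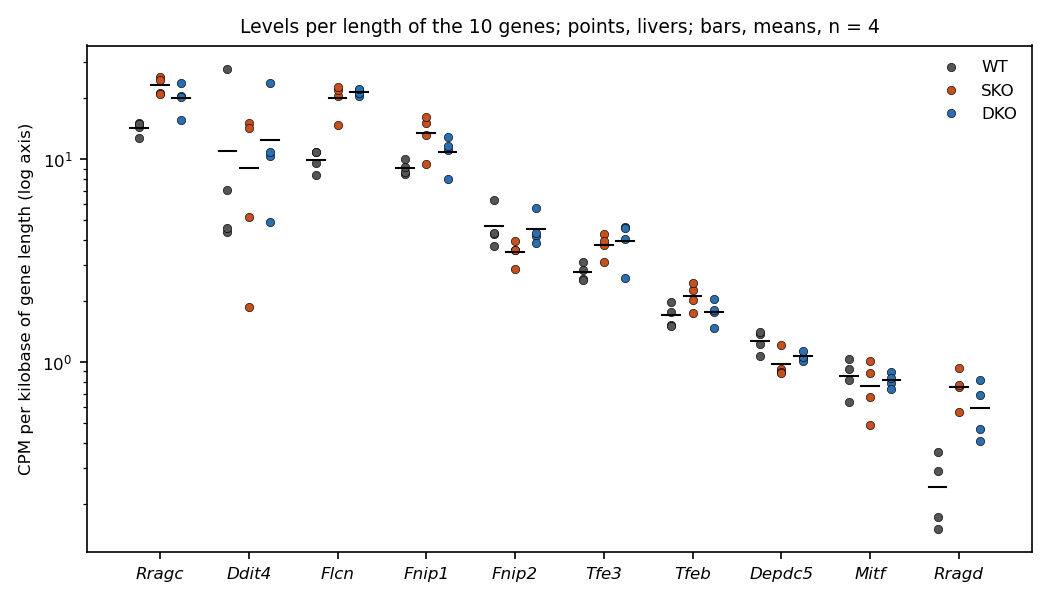
Level per length (CPM per kilobase, logarithmic vertical axis) of the 10 genes, ordered by their WT mean, with a point per liver and a bar at the mean of 4 livers. Rragc leads and Rragd is last in WT livers, and in SKO and DKO livers the points of Flcn reach those of Rragc.

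Around these genes, 117 other genes of the pathway were set out in 8 lists, of which 113 were tested in each comparison. The lists, like the 10 genes, were set with earlier results of these livers known, so their calls and p-values, adjusted over all genes, describe these livers and are not independent evidence. In SKO livers 41 rose and 10 fell, beside 16.7% higher and 15.4% lower of all genes tested, and in DKO livers 20 rose and 3 fell, beside 6.06% and 4.39%, or 18.4% and 17.5% of all genes without DKO replicate 4. Counts near these shares, such as those of the Rag and Ragulator list and of the folliculin partner and AMPK list, are not results about the lists. The DKO counts depend on single livers, since 23 genes in all passed the threshold with every liver kept, 59 without DKO replicate 4, and 3 (without WT replicate 1 or 2) to 11 (without WT replicate 3) when any other liver was left out. Of the list genes named below as past the threshold in DKO livers, Gdf15 and Fgf21 kept the call without any single liver, Hexa lost it without WT replicate 1 or 2, and each of the others lost it in at least 5 of the 8 fits without 1 liver. Between DKO and SKO livers 0 of 113 passed it in edgeR's quasi-likelihood test and in DESeq2, and 1 was higher and 2 lower at an unadjusted p-value under 0.05.

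Among the other Rag GTPases and the Ragulator complex that anchors them, 1 rose and 1 fell of 7 tested in SKO livers, with a list median of 0.12 on the log2 scale. Rraga, which encodes RagA, had 34.2 ± 2.49 CPM in the controls, 36.8 ± 4.62 in SKO and 35.4 ± 6.03 CPM in DKO livers (SD, n = 4), with log2 fold changes of 0.12 and 0.06 against WT. Rragb had at most 3 counts in any WT, 8 in any SKO and 10 in any DKO liver, and was too low to be tested. The Ragulator gene Lamtor3 rose in SKO (log2 fold change 0.62, standard error 0.14, adjusted p = 0.00623, edgeR's quasi-likelihood test) and DKO livers (0.53, standard error 0.13, adjusted p = 0.0369), and Lamtor2 fell in SKO livers (-0.40, standard error 0.12, adjusted p = 0.0259). The fall was not called when WT replicate 1, 2 or 3 or SKO replicate 1, 3 or 4 was left out, and in DKO livers the count of 1 rise became 0 when any liver other than DKO replicate 4 or WT replicate 3 was left out.

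Of 17 genes for GATOR complexes, the lysosomal KICSTOR scaffold and amino acid sensors, 4 rose and 1 fell in SKO livers (median 0.05). In DKO livers edgeR and DESeq2 called 0 (median 0.10), with 3 higher and 2 lower at an unadjusted p-value under 0.05. Without DKO replicate 4, 6 rose and 1 fell in DKO livers. Mios of GATOR2 rose from 18.7 ± 2.40 to 28.3 ± 5.05 CPM (SD, n = 4, adjusted p = 0.0101 by edgeR), and Itfg2 of KICSTOR and Nprl3, which pairs with DEPDC5 in GATOR1, rose by log2 fold changes of 0.60 and 0.39. Castor2, listed with the genes of amino acid sensing, fell from 4.03 ± 1.08 to 2.01 ± 0.562 CPM. The 4 calls of a rise in SKO livers were 2 with DESeq2 and 2 without any single WT liver. Nprl3 was not called without any 1 of the WT livers or SKO replicate 2 or 4, nor Castor2 without WT replicate 1 or 2 or SKO replicate 2.

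Among 10 genes of mTORC1 with its TSC and Rheb switch, 3 rose and 0 fell in SKO livers and 1 rose in DKO livers, although the list medians were -0.13 and -0.02. In DKO livers 3 rose and 1 fell without DKO replicate 4, and 0 were called without any other liver. Mtor, the kinase itself, had 67.8, 84.2, 67.6 and 82.1 CPM in WT, 200, 181, 163 and 156 CPM in SKO and 162, 195, 124 and 67.6 CPM in DKO livers. SKO livers were all above WT livers (log2 fold change 1.23, standard error 0.13, adjusted p = 4.56e-05, edgeR), and DKO replicate 4 was within the WT range. The DKO value of 0.88 (standard error 0.28) did not pass, and without DKO replicate 4 it was 1.1 (standard error 0.15) and passed. Rheb, the small GTPase that switches mTORC1 on, rose from 49.1 ± 2.63 to 83.1 ± 14.7 CPM in SKO livers, and Akt1s1, which encodes the mTORC1 inhibitor PRAS40, rose in both genotypes (0.55 and 0.49).

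In the list of folliculin partners and AMPK, 2 of 13 rose and 3 fell in SKO livers, and 1 rose and 2 fell in DKO livers. Over all genes tested, 16.7% were higher and 15.4% lower in SKO livers, and 6.06% and 4.39% in DKO livers. Nothing is read from this mix of directions. Without DKO replicate 4 there were 3 rises and 3 falls in DKO livers, and without any other liver 0 rises and at most 1 fall. AMPK is an energy-sensing kinase that the folliculin complex binds. The genes for its 2 alternative beta subunits moved in opposite directions, with Prkab2 rising from 3.38 ± 0.833 to 8.52 ± 2.39 CPM and Prkab1 falling from 28.4 CPM to 18.1 CPM in SKO livers (log2 fold changes 1.35 and -0.63). In DKO livers the same genes had log2 fold changes of 1.72 (standard error 0.41, adjusted p = 0.0324, edgeR) and -0.47 (standard error 0.13, adjusted p = 0.0438), and without DKO replicate 4 2.00 and -0.44. The catalytic subunit gene Prkaa2 rose by 0.66 in SKO livers, while Prkag2 (-0.78) and the autophagy kinase gene Ulk1 (-0.56) fell. The rise of Prkaa2 was not called without any 1 of the WT livers or SKO replicate 1 or 4, which left 1 rise in the list.

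The vacuolar ATPase, the proton pump that acidifies the lysosome and takes part in amino acid sensing, had the largest share of rises among the lysosomal lists, 12 of 17 genes with 1 fall in SKO livers and a median log2 fold change of 0.48. In DKO livers 5 of 17 rose, with a median of 0.34, while 11 rose and 1 fell without DKO replicate 4, 2 rose without WT replicate 3 and 0 without any other liver. The 12 rises in SKO livers were 8 without WT replicate 1 or 4. Atp6v1e1 rose from a WT mean of 79.4 ± 8.88 CPM to 150 ± 30.9 with loss of Cpt2 and 130 ± 18.9 CPM with loss of both genes (SD, n = 4, adjusted p = 0.00101 and 0.0198, edgeR), and Atp6v1b2 and Atp6v1c1 rose by 0.78 and 0.75 in SKO livers. The fall was that of Atp6v0d2, an isoform gene with 27 to 58 counts in WT livers and at most 3 in any SKO liver. Atp6v0d2 had 0.0966, 0 and 0.103 CPM in DKO replicates 1 to 3 and 11.4 CPM in DKO replicate 4.

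Of 28 lysosome and autophagy genes known as TFEB targets, 11 rose and 1 fell in SKO livers (median 0.24) and 6 rose in DKO livers (median 0.17). Without DKO replicate 4 the DKO counts were 9 rises and 4 falls, and without any other liver 0 to 2 rose. Hexa, a lysosomal hexosaminidase gene, rose from a WT mean of 41.5 ± 3.29 CPM to 74.3 ± 14.7 CPM in SKO livers and 74.2 ± 14.3 CPM in DKO livers (log2 fold changes 0.86 and 0.85, adjusted p = 0.00118 and 0.0133, edgeR). Sqstm1, the autophagy receptor gene, had 401 to 464 CPM in WT livers, 624 to 1460 in SKO livers and 1780, 1740, 1450 and 383 CPM in DKO replicates 1 to 4. Lamp1, which encodes an abundant lysosomal membrane protein, fell by 0.33 on the log2 scale in SKO livers, a call that was kept without WT replicate 1 or SKO replicate 2 and lost without any other liver.

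Gpnmb, a lysosomal glycoprotein gene and known TFE3 target that macrophages also express, had 0 to 8 counts per WT liver. It had 54.1, 36.9, 26.3 and 27.5 CPM in SKO and 12.5, 9.71, 23.3 and 0.594 CPM in DKO livers, against 0.364, 0.509, 0.0652 and 0 CPM in WT livers. All SKO livers were thus above all DKO livers for Gpnmb, without passing the threshold in that comparison. Because WT counts were at or near 0, no fold change is given. Of the 14 macrophage markers 1, the lysosomal Cd68, rose in SKO livers, from 7.98 to 38.5 CPM.

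Both remaining lists hold target genes of regulators known to raise Ddit4. Of 11 ATF4 targets tested, 8 rose and 0 fell in SKO and 6 rose in DKO livers, with median log2 fold changes of 2.15 and 1.86. In DKO livers 10 of 12 rose without DKO replicate 4, and 3 to 5 without any other liver. Fgf21, a hormone gene, rose from a WT mean of 3.24 ± 1.8 CPM to 71.7 ± 23.6 CPM in SKO livers and 107 ± 67.1 CPM in DKO livers. Gdf15 rose by 4.17 on the log2 scale in SKO livers and by 4.81 in DKO livers (adjusted p = 6.1e-06 and 0.00337, edgeR). Psat1 rose by 3.75 in SKO livers, but in DKO replicate 4 it had 0.162 CPM, below the WT range. Of 10 glucocorticoid targets 0 rose, 3 fell in SKO livers (Tsc22d3, Pck1 and Klf9) and 1 in DKO livers (Dusp1), with medians of -0.68 and -0.64. In SKO livers 6 fell without SKO replicate 3 and 2 to 4 without any other liver, and with no filter on low counts 6 fell as well. Klf9 was not called without WT replicate 1 or 2 or SKO replicate 2 or 4. In DKO livers 6 fell when DKO replicate 4 was left out, 1 when WT replicate 4 was, and 0 for each of the others.

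**Figure D4:**
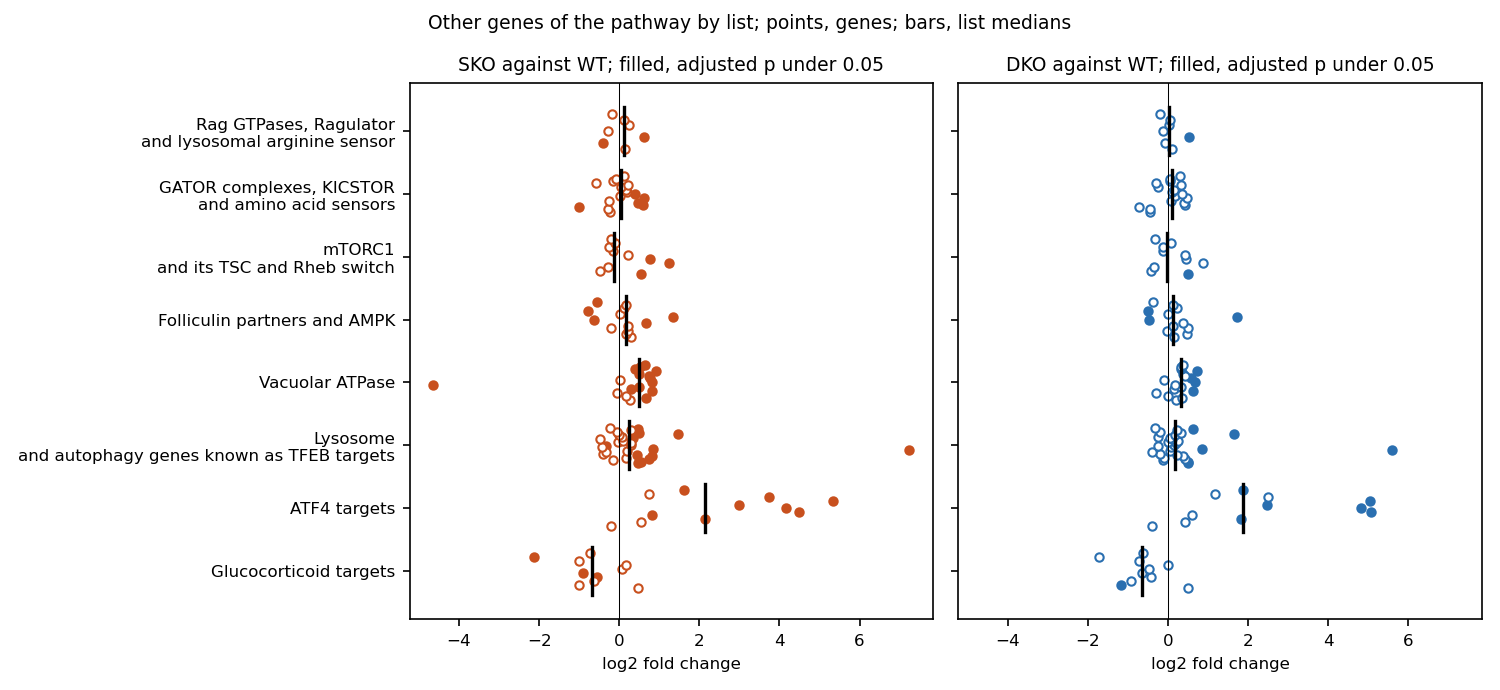
Log2 fold changes (horizontal axes) of the tested genes of the 8 lists in SKO against WT (left) and DKO against WT (right), a point per gene, filled where the adjusted p-value was under 0.05, with the list median as a bar. The vacuolar ATPase medians are at 0.48 and 0.34 and those of ATF4 targets at 2.15 and 1.86, while the isolated points at the far right (Gpnmb) and far left (Atp6v0d2) are fitted values of genes with livers at or near 0 counts.

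Genes with a profile most like that of Flcn were found by the root mean square distance of log2 CPM, each taken relative to its WT mean, over the 12 livers and 13903 genes. Closest were Tmem82 (distance 0.23), Adck2 (0.24), Ubald1 (0.25), Ctsz, the gene of lysosomal cathepsin Z (0.26), and Mgme1, a mitochondrial DNA exonuclease gene (0.26), beside a median distance of 0.94. Ctsz averaged 198 CPM among WT, 367 among SKO and 364 among DKO livers. For Rragd the closest gene was Pparg, which encodes the nuclear receptor of lipid storage, at a distance of 0.31 and with 8.07, 22.3 and 19.3 CPM, followed by Tmem65, Tpm4, Gm10110 and Abr at 0.35 to 0.38, beside a median of 1.27. The distances describe these livers, and the genes share libraries and depth with Flcn and Rragd.

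Markers of some cell types differed between the genotypes, and in whole liver fewer cells of a type and less RNA per cell cannot be told apart. Of the endothelial and lymphocyte markers tested, 0 passed the threshold in any comparison in edgeR. The summed CPM of 7 hepatocyte markers ranged from 76110 to 94860 among WT, from 40830 to 68770 among SKO and from 44020 to 98250 among DKO livers, or to 52070 without DKO replicate 4. Alb, with a mean of 59210 CPM among WT and 31650 among SKO livers, makes up most of this sum. In SKO livers 4 of the 7 genes were past the threshold and lower (Alb, Ttr, Serpina1c and Ahsg), whereas Apoa1, Cps1 and Hnf4a had log2 fold changes of 0.23, -0.03 and -0.07 and were not past it. In DKO livers 1 of the 7 was lower, and the count was 4 without DKO replicate 4.

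The 14 macrophage markers summed to 330 to 647 CPM among WT, 290 to 737 among SKO and 192 to 684 among DKO livers, and without DKO replicate 4 the DKO range was 192 to 290, below every WT liver. In DKO livers 1 of the 14, Marco, fell with all livers (log2 fold change -1.94, standard error 0.45, adjusted p = 0.0288, edgeR) and 13 had values below 0. Without DKO replicate 4, 12 fell, Marco with a value of -2.49, and 1, Cd68, rose. The 5 cholangiocyte markers summed to 27.9 to 33.5 CPM among WT, 7.37 to 14.3 among SKO and 9.62 to 31.6 among DKO livers, or to 18.9 without DKO replicate 4. Of the 4 cholangiocyte markers tested, 2 were lower in SKO livers and 1 in DKO livers, and 2 of 5 were lower in DKO livers without DKO replicate 4.

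The 8 stellate cell markers summed to 193 to 227 CPM in WT livers and to more in every SKO (260 to 352) and DKO liver (246 to 312). Dcn, with a mean of 117 CPM among WT and 176 among SKO livers, makes up most of this sum and was the 1 gene past the threshold in SKO livers, where 5 of the 8 had values above 0 and 3 below. In DKO livers 0 of the 8 passed in edgeR's quasi-likelihood test with all livers, with 2 at an unadjusted p-value under 0.05, and Dcn passed without DKO replicate 4. The ranges of 7 endothelial (160 to 353, 205 to 279 and 187 to 276 CPM) and 6 lymphocyte markers (1.38 to 3.54, 1.67 to 3.83 and 1.90 to 4.70) overlapped between WT, SKO and DKO livers, and no list had a marker at 0 in all livers of a genotype. The part of cell composition in the values of the 10 genes was not tested.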

How the data were processed

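Liver RNA-seq of 4 WT, 4 SKO and 4 DKO mice fasted for 24 h was analysed. The count table deposited by the authors holds unnormalized reads per Ensembl gene, and the submitters' processing notes name HISAT2 and GRCm38/mm10. The counting program, its strand setting and the annotation release are not given in the sources used here. Start and end of 1472 of 52073 shared gene IDs (2.83%) equalled those of GENCODE M21 on GRCm38, so only chromosomes are printed from the count table. An FPKM table and the authors' tables of fold changes and p-values were not used.

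Each pair of genotypes was fitted with edgeR 4.0.16 in R 4.3.3 on the 8 livers compared (TMM, filterByExpr, quasi-likelihood test, two-sided), with Benjamini-Hochberg adjustment over all genes tested and a threshold of 0.05. Standard errors were derived from this test, as the absolute log2 fold change divided by the square root of its F statistic. CPM were scaled by TMM over the 12 livers, with a prior count of 2 for log2 CPM. Code was tested on simulated data. The members and lists were chosen with earlier results of these data known. The genes named are the members, of each list up to 3 genes per direction with the smallest p among those past the threshold against WT, Rraga, Rragb, Tfec, Cpt2, Atf3, Alb, and the 5 nearest profiles of Flcn and of the member with the largest SKO change. Apoa4, Xist, Cd68, Marco, Dcn, Ttr, Serpina1c, Ahsg, Apoa1, Cps1, Hnf4a and the sum of the Y-linked Uty, Kdm5d, Eif2s3y and Ddx3y were named after their values were seen. Alternatives were DESeq2 1.42.0, RLE normalization, no filter on low counts, all 12 livers in 1 fit, a replicate block, and leaving out each liver or both livers with Xist counts. Counts of livers differed beyond sampling noise (chi-square per degree of freedom at least 18.5). Deviations of same-numbered livers correlated at -0.355 to 0.101 over 12 pairs. Pairing by number was thus not seen, but this check cannot exclude shared litters or dates. The hepatocyte symbol Tf was not matched. P-values measure the spread between livers of a label.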

Additional observations from a re-analysis of the deposited data

Results flagged for a closer look

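Ddit4 was at 49.1 CPM in WT replicate 3, while the other WT livers had 7.65 to 12.4 CPM, so that the gap to the next liver was 0.886 of the whole range of the group. Depdc5 was at 14.3 CPM in SKO replicate 1 against 10.4 to 10.9 CPM in the other SKO livers, a gap of 0.861 of the range. Both exceed Dixon's critical value for 4 samples. Among 30 values checked, 10 genes in 3 genotypes, chance gives about 1 in 20, or 1.5, and 2 were found.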

How the results depend on the processing

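Of the 10 genes, 5 passed the threshold in SKO against WT livers and 3 to 6 when single livers were left out (3 without WT replicate 1 or 2, 6 without SKO replicate 1). In DKO against WT the count of 2 became 1 with RLE normalization, 4 without the livers with Xist counts and 1 to 4 without single livers (4 without DKO replicate 4, 1 without any other). DESeq2 and the fit of all 12 livers called Rragd besides Flcn and Rragc. With no filter on low counts Rragd was called in place of Rragc. In DKO against SKO it was 0 in every fit. Flcn passed the threshold against WT in 14 of 14 alternatives in both genotypes. Rragc and Rragd did so in 14 in SKO livers and in 4 and 5 in DKO livers, Fnip1 in 12 and Tfe3 in 11 in SKO livers. None of the calls of the 10 genes turned its direction in the alternatives. All 140 log2 fold changes per comparison moved by less than the SD of log2 CPM between livers of a genotype. This tolerance is wide and leaving out 1 liver can hardly exceed it, so it is not a measure of stability. Ddit4 stayed within it while moving, without WT replicate 3, from -0.25 to 0.77 in SKO and from 0.20 to 1.23 in DKO livers.

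The number of pathway list genes called ranged from 40 to 51 in SKO against WT (51 with all livers) and from 3 to 59 in DKO against WT (23 with all livers, 59 without the livers with Xist counts) when single livers were left out, and it was 0 throughout in DKO against SKO. Calls over all genes ranged from 3617 to 4711, from 244 to 5253 and from 0 to 15, beside 4576, 1510 and 3 with all livers. The high counts in DKO livers were those without DKO replicate 4 (5253 and 15), and without any other liver DKO against WT gave 244 (without WT replicate 2) to 719 (without WT replicate 3) and DKO against SKO 0 to 2. DESeq2 called 2508 genes in DKO against WT and 91 in DKO against SKO, and edgeR with no filter on low counts called 35 in the latter. Without the livers with Xist counts edgeR called 5253 and 21. With the replicate block, DKO against WT gave 1 of the 10 genes, 10 pathway genes and 691 genes in all, and DKO against SKO 0 genes. In SKO against WT it gave 5, 50 and 4111, with 6 falls of glucocorticoid targets in place of 3 and 2 rises of the GATOR list in place of 4. In DKO livers it gave 2 rises of the vacuolar ATPase in place of 5, 2 of TFEB targets in place of 6, 0 of Ragulator and of mTORC1 genes in place of 1 each, and 0 falls in place of 2 (AMPK list) and 1 (glucocorticoid targets). In SKO livers the calls of Lamtor2, Prkaa2, Lamp1 and Klf9 were lost with all 12 livers in 1 fit, those of Lamtor2, Nprl3 and Lamp1 with no filter on low counts and with the replicate block, and that of Nprl3 with DESeq2 and RLE normalization. These causes were not tested. Rragd had 14 to 36 and Rragb at most 3 counts per WT liver, so depth limits both.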
